A study of Mus musculus with 2 samples.

Results

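The keratins of the outer root sheath and companion layer of the mouse hair follicle were represented by 7 genes, Krt5, Krt14, Krt6a, Krt6b, Krt16, Krt17 and Krt75, of 18193 genes named by a single symbol on the array. They were taken by gene symbol, with every probe set annotated to that symbol alone, which gave 12 of the 45037 probe sets that are not controls. The study compared follicles of dnFGFR2-IIIb transgenic mice with follicles of wild-type mice, at postnatal day 10 in both groups, to find targets of signalling through FGFR2-IIIb, the epithelial splice form of fibroblast growth factor receptor 2. Each group was 1 Affymetrix expression array, hybridised with total RNA from about 300 follicles pooled from 3 mice of separate litters, about 100 from each. The promoter that drives the transgene and the strain of the mice are, in the sources used here, not given. With 1 array a group there is no spread between replicates and no test, so every difference below describes these 2 pools, and pooling hides the spread between mice.

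Keratins form filaments only in pairs, each of a type I (acidic) and a type II (basic) protein. Krt5 (type II) and Krt14 (type I) are the pair of dividing basal keratinocytes and of the outer root sheath, the sleeve that continues the epidermis around the follicle. Krt75 (type II, also called K6hf) is the keratin of the companion layer, the single cell layer between the outer and inner root sheath, and is also made in the medulla, the core of the hair shaft. Krt6a and Krt6b (type II) and Krt16 and Krt17 (type I) are made in the outer root sheath and companion layer, and in injured or stressed epidermis. The type I members are neighbours in a gene cluster on chromosome 11 and the type II members lie in a cluster on chromosome 15.

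The start regions of Krt75 and Krt5 are shown because these type II genes of the same cluster had unlike ratios, given below. Both are from RefSeq, build GRCm38.p6, run from 250 bases before to 50 bases after the annotated start, and are read on the minus strand, from chr15:101573855-101574154 for Krt75 and chr15:101712856-101713155 for Krt5. The promoter table held 3 of the 7 genes, and the third, Krt14, is not printed.
Krt75: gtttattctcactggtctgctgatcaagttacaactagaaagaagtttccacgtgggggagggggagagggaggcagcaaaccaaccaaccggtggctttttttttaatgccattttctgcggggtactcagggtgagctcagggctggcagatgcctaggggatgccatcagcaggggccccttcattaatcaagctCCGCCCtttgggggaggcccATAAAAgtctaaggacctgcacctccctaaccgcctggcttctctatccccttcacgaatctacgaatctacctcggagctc
Krt5: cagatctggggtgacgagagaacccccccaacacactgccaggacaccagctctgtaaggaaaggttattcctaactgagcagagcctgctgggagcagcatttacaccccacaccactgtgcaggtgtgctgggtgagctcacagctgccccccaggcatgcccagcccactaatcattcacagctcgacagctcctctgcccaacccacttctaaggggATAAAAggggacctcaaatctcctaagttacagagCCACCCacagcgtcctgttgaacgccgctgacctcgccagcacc
Capitals mark exact matches to any of 6 motifs searched on both strands, namely the TATA box TATAAA, its variant ATAAAA, which can overlap it, the AP-1 site TGANTCA, the GC box GGGCGG, the CACCC box CCACCC and the AP-2 site GCCNNNGGC. The TATA-like ATAAAA began at -32 in Krt75 and at -29 in Krt5, and stood in 18.5% of the 32851 promoters of that length. Krt75 also held GGGCGG on the opposite strand, at -52, and Krt5 held CCACCC at 7. These letters stood in 35.7% and 31.5% of promoters. All such shares count a match anywhere in the window, on either strand, and not at a given position. The letters TATAAA (13.6% of promoters), TGANTCA (7.81%) and GCCNNNGGC (16.6%) were not in either window.

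Signals are linear intensities in arbitrary units, scaled alike on both arrays. A floor of 10.5, the 40th percentile of both arrays, stands for the lowest usable signal. Probe sets differ in how well they bind, so a signal is set against the same probe set on the other array and not against another gene. Of the 7 genes, 6 exceeded the floor on both arrays and 5 had signals over 1000, far above background. The exception was Krt6b.

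Krt5 read 3619 in transgenic follicles and 3943 in wild-type follicles at its only probe set, 1424096_at. The transgenic signal was 91.8% of the wild-type signal, a log2 ratio of -0.12. Its partner Krt14 read 3954 in transgenic follicles and 4474 in wild-type follicles at 1423935_x_at, a log2 ratio of -0.18. By these probe sets the basal pair was bright in both pools and close to even between them, but the other Krt14 probe sets were less even. The suffix _x_at marks probes that may bind other transcripts too. The second bright Krt14 probe set, 1460347_at, without that suffix, read 2651 in transgenic and 3264 in wild-type follicles (log2 ratio -0.30). A dim Krt14 probe set read 32.2 in transgenic and 40.7 in wild-type follicles (log2 ratio -0.34), so that all 3 had a lower transgenic signal at this scaling and their ratios spanned 0.16.

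Krt17, a type I keratin of the outer root sheath, companion layer and medulla, read 2894 in transgenic follicles and 3940 in wild-type follicles at 1423227_at. The transgenic signal was 73.4% of the wild-type signal, a 1.36-fold lower value and a log2 ratio of -0.45. Its other probe set, 1420193_at, was dim and nearly even, at 51.7 in transgenic and 53.1 in wild-type follicles (log2 ratio -0.04). The lower Krt17 signal therefore rests on 1 bright probe set, and the 2 probe sets differ by 0.41 on the log2 scale. Krt75, a type II keratin of the companion layer and medulla, read 3648 in transgenic follicles and 4892 in wild-type follicles at 1427378_at, its only probe set. Its transgenic signal was 74.6% of the wild-type signal, a log2 ratio of -0.42.

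The remaining members are the stress-inducible keratins. Krt6a read 2553 in transgenic follicles and 2588 in wild-type follicles at 1422784_at, a log2 ratio of -0.02. Its other probe sets read 2028 and 1978 in transgenic follicles, against 2184 and 2097 in wild-type follicles, with log2 ratios of -0.11 and -0.08. These 3 probe sets spanned 0.09, so Krt6a was even between the pools by each of them. Krt16, a type I keratin made with Krt6a in stressed epidermis, was dimmer, at 177 in transgenic follicles and 260 in wild-type follicles (1448932_at). Its transgenic signal was 68.1% of the wild-type signal, a log2 ratio of -0.55. Krt6b read 1.10 in transgenic follicles, under the floor, and 17.4 in wild-type follicles (1422588_at).

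Against the floor Krt6b was at least 1.66-fold lower in transgenic follicles, but both signals were near background. Of 27 control probe sets with no target in the mouse, the brightest read 15.8 beside the transgenic RNA and 8.50 beside the wild-type RNA. Krt6a and Krt6b are close relatives in sequence, so signal shared between them could make their values uncertain, which was not tested. On the transgenic array the Krt6b probe set read 1.10, where Krt6a read 2553 at its brightest probe set. A further probe set annotated to Krt17 and Krt14 together read 15.8 in transgenic and 9.90 in wild-type follicles, and was assigned to neither gene.

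**Figure D1:**
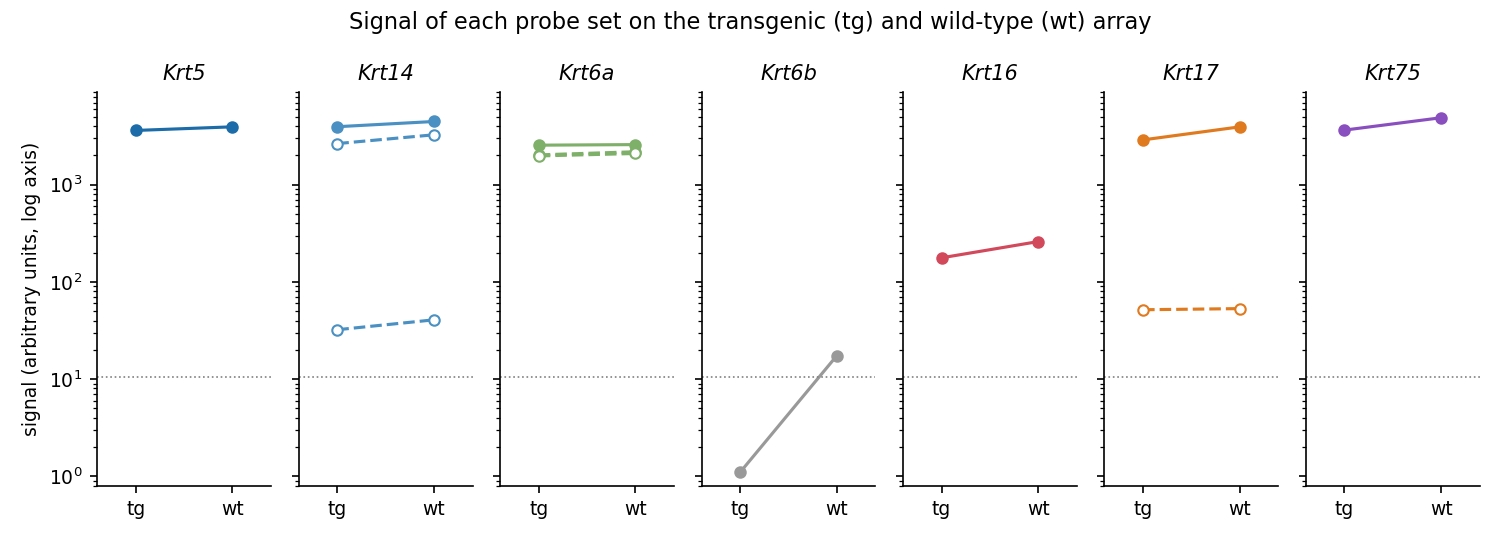
Signal of every probe set of the 7 keratin genes (log axis, arbitrary units) on the transgenic array (tg, left) and the wild-type array (wt, right) of each panel. Filled points and solid lines are the brightest probe set of a gene, open points and dashed lines the others, and the dotted line is the floor of 10.5. At equal trimmed means all 12 lines are lower on the transgenic array, while with equal spiked controls 6 of them turn (Krt5, the brightest of Krt14, all 3 of Krt6a and the dim one of Krt17). The solid lines of Krt16, Krt17 and Krt75 are steeper than those of Krt5 and Krt6a, and the transgenic signal of Krt6b lies under the floor.

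With the arrays at equal trimmed means, all 7 genes and all 12 probe sets had a ratio of transgenic to wild-type signal under 1, but with equal spiked controls 4 of the 7 genes and 6 of the 12 probe sets did. None reached the 2-fold difference that counts as a call when both signals exceed the floor: 0 of 6 genes and 0 of 11 probe sets were called. Over the whole array, 3.18% of the 11565 genes above the floor in both pools were called, and 3.78% of the 20357 named probe sets above it in both pools. A count of 0 among so few is close to those shares and says little about the members. The median log2 ratio was -0.42 over the 7 genes with Krt6b at its bound, and -0.30 over the 6 above the floor on both arrays. Over all 14045 genes above the floor on at least 1 array the median was 0.01, and 48.7% had a ratio under 1. Fewer cells of a type and less RNA per cell cannot be told apart in such pools.

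The bright members were next set beside genes of like brightness, whose ratios vary less. On these arrays the log2 ratios of different probe sets of the same gene had an SD of 0.13 where the mean signal was over 1000 (245 genes), 0.24 between 100 and 1000 (1648 genes) and 0.48 under 100 (2360 genes). This spread is between probe sets on the same 2 arrays, and its sources were not separated. It leaves out differences between mice and between arrays. Of the 1075 genes that read over 1000 on at least 1 array and exceeded the floor on both, 1.58% were called, 60.6% had a ratio under 1, the median log2 ratio was -0.03, and 5% lay at or below -0.42.

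Krt17 stood near the low end of these bright genes, with 4.19% of them at a still lower ratio, and so did Krt75, with 4.65%. Krt14, with 20.8% lower, Krt5, with 31.3%, and Krt6a, with 54.3%, lay in the body of the distribution. The Krt14 share is that of the _x_at probe set, and for the other bright one, 1460347_at, 9.12% of the bright genes were lower. Krt16 belonged with the 5684 genes between 100 and 1000, whose median log2 ratio was 0.00, and 3.96% of those had a lower ratio. These shares place the genes among others on the same 2 arrays and are not a test.

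**Figure D2:**
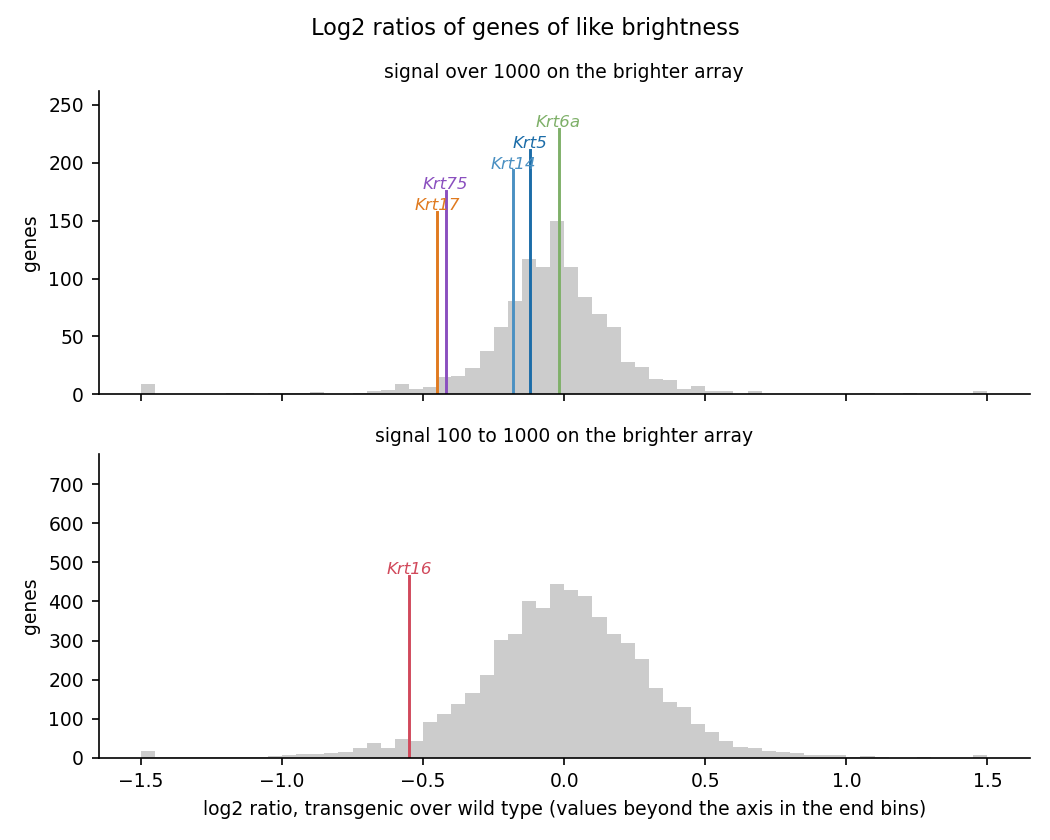
Histogram of log2 ratios (transgenic over wild type, x axis; number of genes, y axis) for genes that read over 1000 on their brighter array (top) and from 100 to 1000 (bottom), with the keratin genes as vertical lines. Krt17 (-0.45) and Krt75 (-0.42) lie in the lower tail of the bright genes, and Krt16 (-0.55) in that of its own class. Krt14 (-0.18, by its _x_at probe set), Krt5 (-0.12) and Krt6a (-0.02) lie in the bulk.

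On these 2 arrays the members thus read at unlike ratios, and the differences were not tested against a spread. Probe sets of the same bright gene had an SD of 0.13 in log2 ratio, and the 2 Krt17 probe sets differed by 0.41. The log2 ratio of Krt17 minus that of Krt5 was -0.32, and that of Krt75 minus that of Krt5 was -0.30. Against Krt6a the differences were -0.43 for Krt17, -0.40 for Krt75 and -0.54 for Krt16, while Krt17 minus Krt75 was -0.02, taken before rounding. With the mean over probe sets, which brings in the dim Krt17 probe set, Krt17 differed from Krt5 by -0.12 and from Krt6a by -0.17, while Krt75 differed from them by -0.30 and -0.35. Such differences between members do not depend on the total to which the arrays are scaled. This grouping of the members was made after their values were seen. Krt17 minus Krt14, both type I, was -0.27 by the brightest probe sets, but -0.15 without the _x_at probe set and 0.03 with the mean over probe sets, so this difference depends on the probe sets used.

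The sign of the smaller ratios depended on the scaling. With the spiked hybridisation controls set equal, which shifted the median of all genes to 0.19, Krt5 (0.07), Krt14 (0.01) and Krt6a (0.17) had ratios above 1, and Krt6a also did with quantile normalization (0.04) and loess (0.02). These are values of the brightest probe sets. The Krt14 probe sets without the _x_at suffix stayed under 1 with equal spiked controls (log2 ratios -0.11 and -0.15). By their brightest probe sets, Krt16 (-0.36), Krt17 (-0.25) and Krt75 (-0.23) stayed under 1 with equal spiked controls, and these genes did so under every other setting tried. With equal medians, which shifted the median of all genes to -0.13, all 7 ratios were under 1, from -0.16 for Krt6a to -0.79 for Krt6b. Relative to the median of all genes, the median of the members was -0.42 with equal spiked controls and -0.44 with equal medians. Both scalings multiply each array by a constant, which shifts all ratios alike save at the floor, so this closeness follows from the arithmetic.

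**Figure D3:**
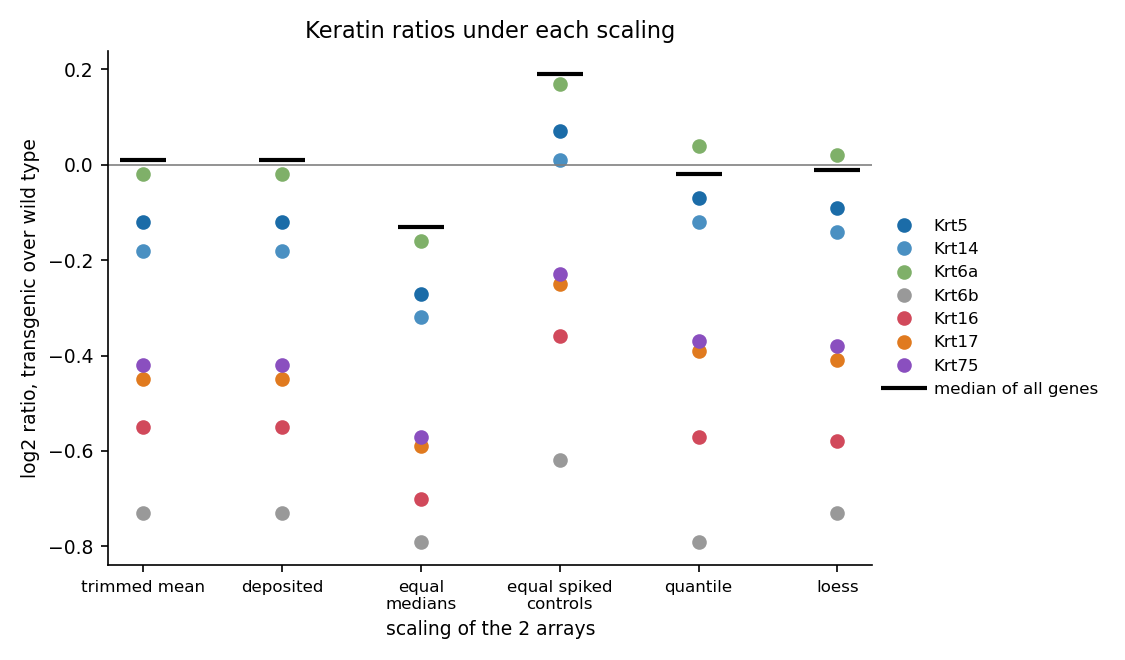
Log2 ratio (transgenic over wild type, y axis) of each keratin gene under 6 scalings of the arrays (x axis), with the median of all genes as a black bar. Krt16, Krt17 and Krt75 lie under 0 in each scaling. By their brightest probe sets, Krt5, Krt14 and Krt6a cross 0 when spiked controls are set equal, and Krt6a also does with quantile normalization and loess. All members but Krt6a lie under the bar in each scaling, and Krt6a lies above it with quantile normalization and loess.

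By position, the type I members have Krt15 and Krt19 on one side and Krt42 on the other among measured genes. Krt15, a keratin of the basal layer and of the bulge where hair stem cells reside, read 852 in transgenic and 1138 in wild-type follicles (log2 ratio -0.42). Krt19, a keratin of simple epithelia and of the bulge, read 37.4 in transgenic and 83.2 in wild-type follicles (log2 ratio -1.15), and Krt42 read 65.5 in transgenic and 78.9 in wild-type follicles (-0.27). Krt15 and Krt19 thus had lower transgenic signals at equal trimmed means, like the members beside them. Of those members, Krt14 turned to 0.01 at its brightest probe set with equal spiked controls. A second, dimmer Krt42 probe set had a log2 ratio of 0.87. The type II members had neighbours with ratios on both sides of 1. They are flanked by the hair shaft keratins Krt84 (29.4 in transgenic and 619 in wild-type follicles, log2 ratio -4.40) and Krt82 (2155 in transgenic and 2000 in wild-type follicles, 0.11), and by the inner root sheath keratins Krt71 (10171 in transgenic and 9728 in wild-type follicles, 0.06) and Krt72 (5974 in transgenic and 7208 in wild-type follicles, -0.27). On the outer side of the type I members the second gene, Gast, was under the floor in both pools.

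The keratins with the log2 ratio nearest to the members' median of -0.42, among 31 other keratin genes that exceeded the floor in both pools, were Krt15 (-0.42), Krt80 (1382 in transgenic and 1807 in wild-type follicles, -0.39) and Krt8, a simple epithelial keratin (97.5 in transgenic and 135 in wild-type follicles, -0.47). That median includes Krt6b at its bound. Over the 6 members above the floor on both arrays it was -0.30, to which Krt72 and Krt42 (both -0.27) lay nearer. The measure of likeness is the difference in log2 ratio over 2 arrays, which many genes share. Those 31 keratins had a median log2 ratio of -0.03, 17 had a ratio under 1, 2 were called lower (Krt84 and Krt19) and 1 higher (Krt77).

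The keratins of other layers gave context for these values. All 7 measured inner root sheath keratins were within 2-fold, with a median log2 ratio of 0.00 and the widest differences in Krt72 and Krt26 (-0.15). Among 12 hair shaft keratins the median was 0.06, 4 had a ratio under 1 and Krt84 was the single call. Among 6 suprabasal epidermal keratins the ratios went both ways, with a median of 0.27, and Krt77 was called higher (63.8 in transgenic and 16.6 in wild-type follicles, log2 ratio 1.94). Krt78 read 32.3 in transgenic follicles and was under the floor in wild-type follicles, at least 3.08-fold higher. Among 5 simple and mucosal keratins 4 had a ratio under 1, the median was -0.47, Krt19 was called lower and Krt18 (122 in transgenic and 208 in wild-type follicles) had a log2 ratio of -0.77. The share of all genes called lower was 1.58% and called higher 1.60%. The signs of the inner root sheath and hair shaft medians turned with the scaling, to -0.14 and -0.08 with equal medians, and to 0.19 and 0.25 with equal spiked controls.

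**Figure D4:**
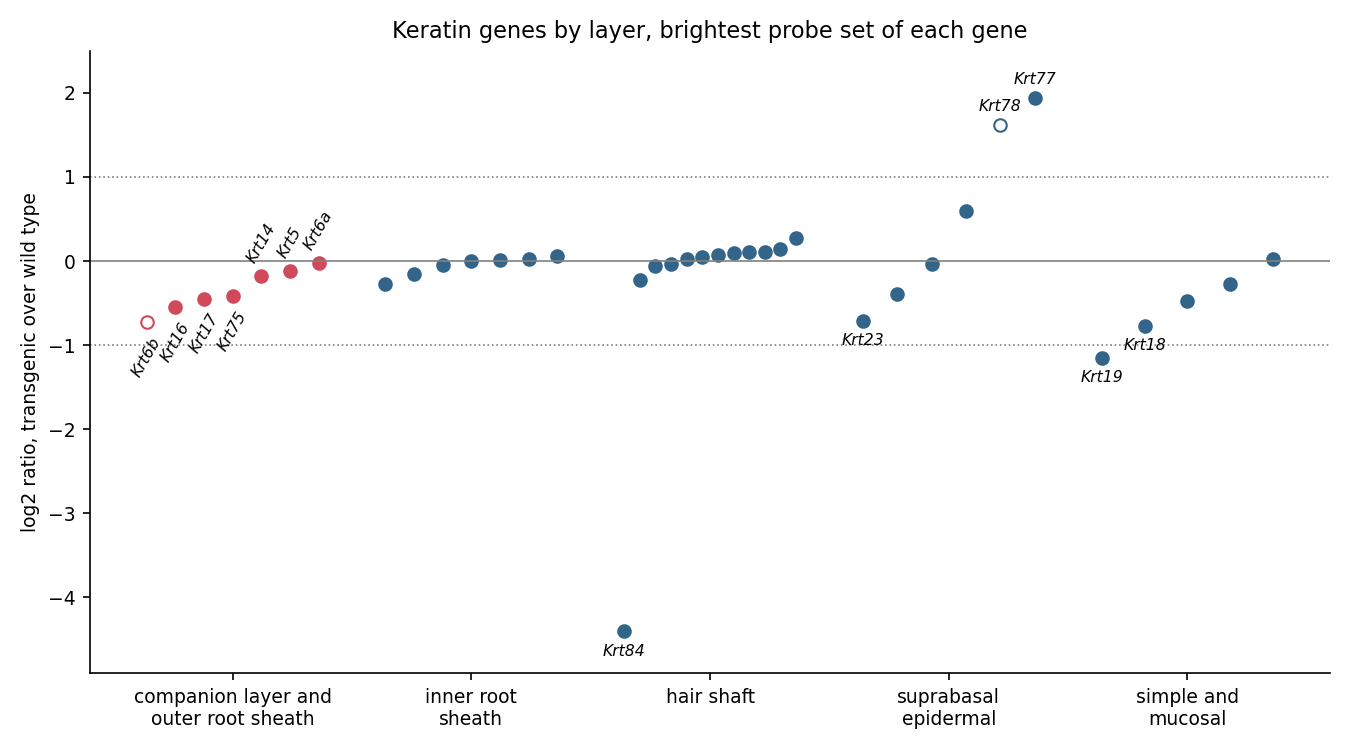
Log2 ratio (transgenic over wild type, y axis) of each measured keratin gene, brightest probe set, grouped by layer (x axis) and sorted within the layer. Open points have 1 signal under the floor, and dotted lines mark 2-fold. The 7 genes of the companion layer and outer root sheath run from -0.73 to -0.02 at equal trimmed means, where Krt5, Krt14 and Krt6a would turn with equal spiked controls, while most hair shaft and inner root sheath keratins lie close to 0, with Krt84 at -4.40.

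Other genes of the cells that carry these keratins were read by counts, in lists picked with earlier results of these data known. Over all genes, 48.7% had a ratio under 1 and 3.18% were called. Of 23 measured bulge, basal-layer and outer-root-sheath genes, 16 had a ratio under 1, and 0 of the 22 above the floor in both pools were called. Their median log2 ratio was -0.14, which became 0.05 with equal spiked controls. The widest differences were in Lamb3, a laminin chain of the basement membrane, under the floor at 8.70 in transgenic and 35.3 in wild-type follicles, and in the bulge marker Cd34 (41.4 in transgenic and 77.6 in wild-type follicles, log2 ratio -0.91). Of 20 genes that anchor or link keratin filaments, 13 read lower in transgenic follicles, and the median of -0.10 became 0.10 with equal spiked controls. Dsc2, a desmosomal cadherin, was the single call in that list (140 in transgenic and 624 in wild-type follicles, log2 ratio -2.15). Itgb4, the integrin that ties keratin filaments to the basement membrane in hemidesmosomes, read 60.8 in transgenic and 101 in wild-type follicles (-0.74).

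Krt6a, Krt6b, Krt16 and Krt17 are known to be made together with a set of stress and repair genes in injured epidermis. The list of that kind was picked with earlier results of these data known, so its counts are a description and not support. Of its 19 measured genes, 12 had a ratio under 1, beside 48.7% of all genes. Of the 15 above the floor in both pools, 5 were called lower and 1 higher, beside 1.58% and 1.60% of all genes. The median log2 ratio was -0.37, or -0.15 with the mean over probe sets. The widest differences were in Sprr1b, a cornified envelope precursor (321 in transgenic and 1846 in wild-type follicles, log2 ratio -2.52), and Serpinb2, an inhibitor of plasminogen activators (99.0 in transgenic and 487 in wild-type follicles, -2.30). The other calls were S100a8, S100a9 and Sprr2h, which were lower, and Il1a, an interleukin gene, which was higher but near the floor in wild-type follicles (42.8 in transgenic and 13.6 in wild-type follicles). Sprr genes resemble each other in sequence, so shared signal makes their values uncertain. Krt6a, at a log2 ratio of -0.02, did not share the size of these differences. Of 23 transcription factors known to act on such keratin genes, 13 read lower in transgenic follicles, and the median was -0.02 (0.17 with equal spiked controls). Fosl1, a subunit of AP-1, was the single call (16.9 in transgenic and 39.9 in wild-type follicles, log2 ratio -1.24). A second Fosl1 probe set read 3.00 in transgenic follicles, under the floor, and 12.2 in wild-type follicles, so its log2 ratio of -0.22 is a bound. Pou2f3 read 10.8 in transgenic and 17.6 in wild-type follicles (-0.70), and both genes were near the floor.

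The pools themselves differed in ways that run alongside these values. Of the markers of the inner root sheath and hair shaft, 13 of 13 exceeded the floor in both pools. They summed to 86725 in transgenic and 82749 in wild-type follicles, and 11 had a ratio over 1 (median log2 ratio 0.03). These layers are parts of the labelled tissue, the hair follicle, as are the outer root sheath and companion layer. Dermal fibroblast markers, 10 of 10 above the floor, summed to 3242 in transgenic and 2437 in wild-type follicles, and interfollicular epidermis markers, 8 of 11, to 12423 in transgenic and 12343 in wild-type follicles, with Krt1, Krt2 and Flg under the floor on both arrays. The sums follow the brightest markers: 6 of those 8 epidermal markers had a ratio over 1, with a median log2 ratio of 0.46, as did 7 of 10 fibroblast markers, with a median of 0.27. Melanocyte markers, 10 of 10, summed to 13385 in transgenic and 14632 in wild-type follicles, and sebocyte markers, 8 of 8, to 4465 in transgenic and 5097 in wild-type follicles. Of these, 7 melanocyte and 6 sebocyte markers had a ratio under 1, with median log2 ratios of -0.21 and -0.17. Immune markers summed to 291 in transgenic and 207 in wild-type follicles, with 7 of 11 above the floor in transgenic and 4 of 11 in wild-type follicles and Ptprc, Cd3e, Cd79a and Cd207 under it on both, and 6 of the 7 measured ones had a ratio over 1 (median log2 ratio 0.74). Dermal papilla (344 in transgenic and 326 in wild-type follicles), endothelial (129 in transgenic and 111 in wild-type follicles, with Pecam1 under the floor) and skeletal muscle markers (133 in transgenic and 117 in wild-type follicles, with Ckm, Myh2, Myl1 and Tnnt3 under it) were dim. The ratio of 3′ to 5′ signal was, for beta-actin, 2.06 in transgenic and 1.89 in wild-type follicles, and, for Gapdh, 0.852 in transgenic and 0.796 in wild-type follicles. Sex-linked genes differed between the pools: Xist read 1146 in transgenic and 352 in wild-type follicles, and Eif2s3y, from the Y chromosome, read 0.400 in transgenic and 191 in wild-type follicles. By these genes the pools differed in the sexes of their mice, which cannot be told apart from the transgene with 1 array a group. Fgfr2 read 368 in transgenic and 197 in wild-type follicles at its brightest probe set, and whether that probe set reads the transgene is not known. The part of each of these in the keratin values was not tested.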

How the data were processed

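Per the labels' protocols, RNA was isolated with Trizol and hybridised by the Affymetrix protocol. The deposited table holds a linear intensity for each probe set. The authors had scaled it to a 2% trimmed mean of 100 on each array, as the values show. How probes were summarised is not given in the sources used here. Precision is limited by the number of arrays, 2 in all.

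The 64 control probe sets were left out, both arrays were rescaled to equal 2% trimmed means (a factor of 0.9998), values under the floor (40th percentile, 10.5) were set to it, and log2 ratios of transgenic over wild type were taken. Of the named probe sets, 34945 had 1 gene symbol, and 34741 of these matched the RefSeq gene table of GRCm38.p6 by gene ID. A gene's value is that of its brightest probe set by mean signal. A gene was called at 2-fold with both signals above the floor. Named genes are every probe set of the members, Krt15, cluster neighbours, the 3 nearest keratins by log2 ratio, the 2 widest differences of each list, and Fgfr2, Xist and Eif2s3y. Names outside this rule were chosen after their values were seen, namely the called genes S100a8, S100a9, Sprr2h and Il1a and the markers under the floor. The members and the lists were chosen with earlier results of these data known. The widest differences of marker lists are not quoted, since those lists serve as sums. Alternatives were 5 scalings or normalizations, 3 floors, a pseudocount, 2 rules for probe sets and 2 thresholds. Python 3.11.15, numpy 2.4.6, pandas 2.3.3, scipy 1.17.1 and statsmodels 0.14.6 were used.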

Additional observations from a re-analysis of the deposited data

How the results depend on the processing

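No member and no member probe set was called under any of the alternatives run, thresholds of 1.5-fold and 3-fold included. Of all 11565 genes above the floor in both pools, 1519 were called at 1.5-fold and 67 at 3-fold. The lack of calls among so few members therefore says little. Both thresholds were run at equal trimmed means only, and with equal medians Krt16 (-0.70) and Krt17 (-0.59) would pass 1.5-fold. Krt6b could not be called, since its transgenic signal was under the floor. No paired analysis was possible because each group is 1 array. The median log2 ratio of the members was -0.57 with equal medians, -0.23 with equal spiked controls and -0.27 with the mean over probe sets. Krt17 ranged from -0.59 to -0.24, Krt75 from -0.57 to -0.23, Krt16 from -0.70 to -0.36, Krt14 from -0.32 to 0.01, Krt5 from -0.27 to 0.07 and Krt6a from -0.16 to 0.17. The bound of Krt6b was -2.64 with the floor at the 20th percentile. With a pseudocount, which adds the floor to each signal and sets no bound, its log2 ratio was -1.27. With higher floors the gene was not measured. Relative to the median of all genes, the members' median stayed between -0.45 and -0.29 over 12 settings. Settings that multiply each array by a constant keep this difference by construction, save at the floor. Quantile normalization and loess, which do not, gave -0.36 and -0.38.

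The number of genes called, 368, became 1530 and 111 with floors at the 20th and 60th percentiles, 59 with a floor of 50, 129 with a pseudocount, 231 with the mean over probe sets, and 1519 and 67 at 1.5-fold and 3-fold. The split of 185 higher and 183 lower became 115 and 296 with equal medians and 314 and 103 with equal spiked controls. The median of the stress and repair genes was -0.61 with the floor at the 60th percentile, -2.02 with a floor of 50, -0.17 with equal spiked controls and -0.15 with the mean over probe sets. That of the suprabasal keratins was -0.04 with a floor of 50 and also -0.04 without probe sets marked _s_at, _x_at or _a_at, and that of the simple and mucosal keratins was -0.77 without them. These floors leave fewer genes in each list, and other causes were not tested.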
